A study of Mus musculus with 6 samples.

Results

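The Eph receptors and ephrins are represented here by 10 genes, whose transcripts were measured in endothelial cells sorted from 4T1 tumours. 4T1 is a mouse mammary carcinoma line that forms tumours after transplantation. The genes are the receptor genes Ephb1, Ephb2, Ephb3, Ephb4, Epha2 and Epha4 and the ligand genes Efnb1, Efnb2, Efna1 and Efna5. They were chosen by gene symbol, with earlier results of these data known. They are 10 of 49315 genes counted and 10 of the 22 genes of the mouse family. All 10 passed the filter on low counts, which left 23989 genes.

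The nanoparticle-positive group (NP+) and the nanoparticle-negative group (NP-) have 3 libraries each. The sample codes MET-106, MET-107 and MET-108 each occur once in either group and are taken here as the tumour, which the labels do not spell out. The hosts were female Balb/c mice, 10 weeks old at harvest, whose inguinal mammary fat pad had been injected with 4T1 cells at 8 weeks of age, so that the tumours were 2 weeks old. Both groups come from mice given 1E12 gold nanoparticles of 50 nm, coated with 5K mPEG and labelled with Cy5, a dye. The particles went into the tail vein, and tumours were taken 1 hour later. Cells were depleted of CD45, a leukocyte marker, enriched for CD31, an endothelial marker, and sorted by flow cytometry on nanoparticle signal. The groups therefore differ in particle content after exposure, not in whether the animal was exposed, and no library used here comes from an animal without particles.

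Eph receptors are receptor tyrosine kinases, and ephrins are their ligands. Because ephrins stay attached to the membrane, signalling needs contact between cells: it runs forward into the cell with the receptor and in reverse into the cell with the ephrin. A-class ephrins are held by a lipid anchor and B-class ephrins span the membrane. In blood vessels EphB4 marks veins and ephrin-B2 marks arteries, and the pair separates the 2 kinds of vessel during development. EphA2 and its ligand ephrin-A1 are known for a part in tumour angiogenesis.

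Levels per exon length put the ligand gene Efna1 and the receptor gene Ephb4 at the top of the 10 genes in both groups. CPM are counts relative to library size, scaled by the TMM method, and RPKM is used here for CPM divided by the exon length in kilobases. Efna1, the ephrin-A1 gene, stood at 199 ± 2.53 RPKM in NP+ and 175 ± 39.8 RPKM in NP- (SD, n = 3 each, as in all values below). Ephb4 came next, with 38.7 ± 4.21 RPKM in NP+ and 16.2 ± 1.26 RPKM in NP-. The third was Epha2, with 14.5 ± 2.76 RPKM in NP+ and 9.09 ± 2.73 RPKM in NP-.

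The 2 B-class ligand genes lay below these. Efnb1 had 10.1 ± 1.36 RPKM in NP+ and 7.86 ± 5.12 RPKM in NP-, and Efnb2 had 3.28 ± 0.852 RPKM in NP+ and 4.54 ± 1.56 RPKM in NP-. In NP+ the libraries of neighbours in this order did not overlap down to Ephb1, the sixth. In NP- the libraries of Efna1, Ephb4 and Epha2 did not overlap from one gene to the next, and those of Epha2, Efnb1, Efnb2, Epha4 and Efna5 overlapped between neighbours.

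The order differed at the bottom. Ephb1 ranked 6 in NP+ and 8 in NP-, Epha4 ranked 7 in NP+ and 6 in NP-, and Efna5 ranked 8 in NP+ and 7 in NP-. Ephb2 and Ephb3 were the lowest in both groups, at 0.0458 ± 0.0379 and 0.0945 ± 0.0635 RPKM in NP+ and at 0.364 ± 0.204 and 0.134 ± 0.215 RPKM in NP-. Most of the EphB receptor signal was Ephb4, which made up 97.0 ± 1.13% of the summed RPKM of the 4 EphB genes in NP+ and 93.8 ± 3.23% in NP-.

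The libraries differed in the counts that fell on olfactory receptor genes, which serve here as a background of low genes per length. Whether single ones of them are in use in these cells was not tested. Over 1092 such genes the density was 0.0322, 0.0982 and 0.0566 RPKM in the NP+ libraries, in the order of their codes, and 0.0849, 0.421 and 0.334 RPKM in the NP- libraries. The NP- mean was 4.5 times the NP+ mean. Ephb2 and Ephb3 lay near it: Ephb2 was below the 95th percentile of single olfactory receptor genes in all 6 libraries, and Ephb3 was above it only in the NP- library of MET-106. Ephb4, Epha2, Efna1, Efnb1 and Efnb2 were above that percentile in all 6. Epha4 was above it in all 3 NP- libraries and in 2 NP+ libraries, Efna5 in 2 of each group, and Ephb1 in 3 NP+ libraries and 1 NP- library.

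**Figure D1:**
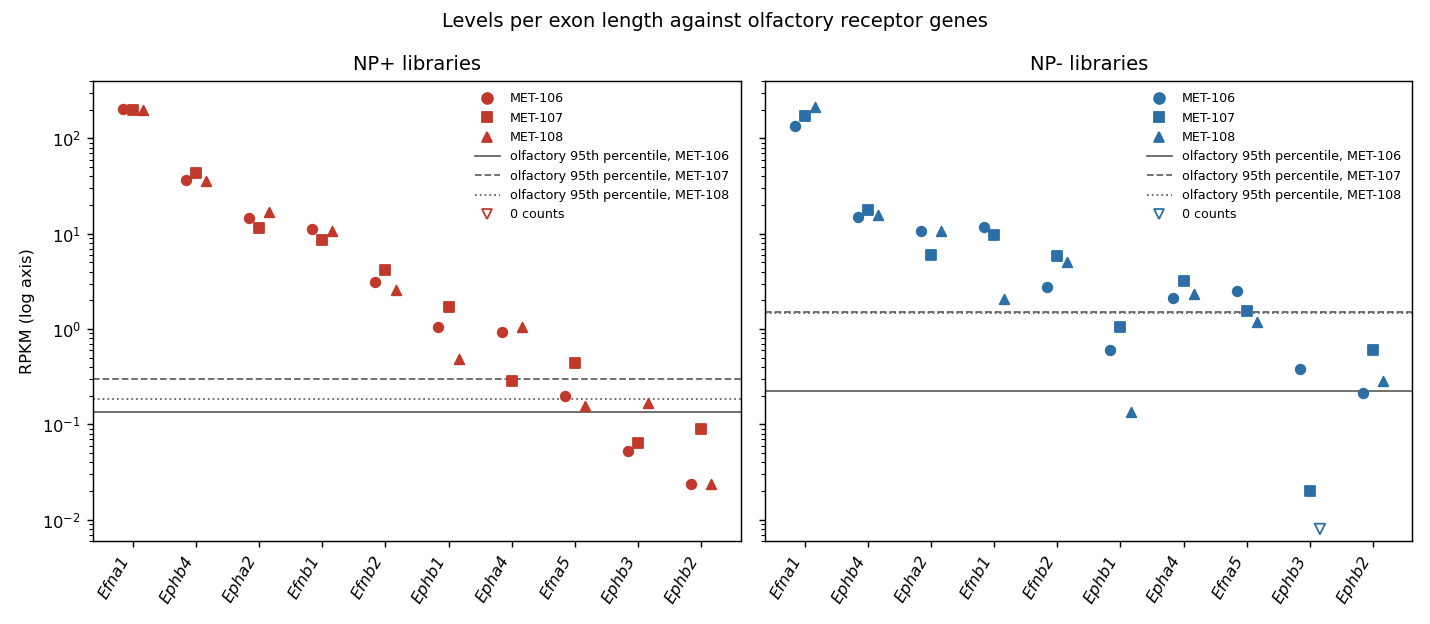
Level of each gene per exon length (RPKM, log axis) in the 3 NP+ libraries on the left and the 3 NP- libraries on the right, with 1 point per library shaped by tumour. Grey lines give the 95th percentile of 1092 olfactory receptor genes in each library, and an open triangle stands for 0 counts; Efna1 and Ephb4 lie highest in both groups and Ephb2 lies under the line of its own library in all 6.

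Promoters of 4 genes are shown because the libraries of these genes did not overlap between groups and their level was above the olfactory density in all 6 libraries. Ephb4 and Epha2 had the higher levels in NP+, and Epha4 and Efna5 the lower ones. The sequences are RefSeq's on GRCm38.p6, from 250 bases before to 50 bases after the annotated start, on the gene's own strand. Capitals mark GGAAGT, the letters of an ETS factor core, and GGGCGG, the letters of a GC box, on either strand (ACTTCC and CCGCCC in the other direction). The 2 motifs do not overlap each other in these windows. They lie at chr5:137349859-137350158 (plus strand) for Ephb4, chr4:141300971-141301270 (plus strand) for Epha2, chr1:77515039-77515338 (minus strand) for Epha4 and chr17:62881268-62881567 (minus strand) for Efna5.
Ephb4: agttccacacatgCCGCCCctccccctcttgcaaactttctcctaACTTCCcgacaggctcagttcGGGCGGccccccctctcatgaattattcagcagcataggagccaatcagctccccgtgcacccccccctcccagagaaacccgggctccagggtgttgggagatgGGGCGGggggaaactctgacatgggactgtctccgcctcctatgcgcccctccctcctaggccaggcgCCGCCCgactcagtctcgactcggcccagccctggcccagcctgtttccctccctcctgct
Epha2: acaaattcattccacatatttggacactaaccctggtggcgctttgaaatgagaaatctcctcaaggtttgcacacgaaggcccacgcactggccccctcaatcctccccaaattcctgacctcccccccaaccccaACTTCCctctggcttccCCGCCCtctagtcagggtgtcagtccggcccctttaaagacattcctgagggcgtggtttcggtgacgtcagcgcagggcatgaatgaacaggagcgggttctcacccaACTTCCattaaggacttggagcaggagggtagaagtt
Epha4: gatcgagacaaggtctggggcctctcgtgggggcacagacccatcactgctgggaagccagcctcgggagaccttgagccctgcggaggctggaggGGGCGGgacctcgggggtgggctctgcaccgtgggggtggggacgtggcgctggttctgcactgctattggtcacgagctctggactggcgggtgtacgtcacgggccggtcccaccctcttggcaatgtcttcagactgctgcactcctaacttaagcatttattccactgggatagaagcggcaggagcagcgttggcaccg
Efna5: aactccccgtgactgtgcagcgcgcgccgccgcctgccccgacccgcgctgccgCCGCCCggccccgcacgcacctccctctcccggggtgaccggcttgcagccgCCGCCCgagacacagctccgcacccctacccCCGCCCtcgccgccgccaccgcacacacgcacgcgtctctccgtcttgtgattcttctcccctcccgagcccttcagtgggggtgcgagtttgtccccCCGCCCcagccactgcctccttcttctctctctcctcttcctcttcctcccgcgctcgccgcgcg

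GGAAGT occurred 1 time in the Ephb4 window, 2 times in the Epha2 window and 0 times in the windows of Epha4 and Efna5. It was present in 3 of the 10 genes, the other being Efnb1, and in 23.8% of all 32851 promoters of the same length. GGGCGG occurred 4 times for Ephb4, 1 time for Epha2, 1 time for Epha4 and 4 times for Efna5, and was present in 7 of the 10 genes and in 35.7% of all promoters. Of the other motifs searched on both strands, the hypoxia response core ACGTG was in 2 of the 10 (19.6% of all), the RBPJ core TGGGAA in 2 (25.6%), the forkhead motif GTAAACA in 0 (3.65%) and the SOX core ACAAT in 1 (31.0%). The Ephb4, Epha4 and Efna5 windows are placed at the gene start of the count files, and that of Epha2 at 19 bases from it. The windows of the 10 genes held 54.7% to 73.3% GC and 10 to 38 CpG sites, against medians of 52.7% and 7 over all promoters. The part of this base composition in the matches was not tested. A gene with more than 1 window counts once, while the shares are per promoter. The matches describe these letters only.

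Sorting on particle signal allows the question of which transcripts go with particle content in these cells. None of the 10 genes passed an adjusted p of 0.05 over all genes tested (edgeR's quasi-likelihood test, Benjamini-Hochberg adjustment), a threshold that 0.0292% of the 23989 genes passed. At an unadjusted p under 0.05, 2 of the 10 were higher in NP+ and 3 lower, against 8.01% and 15.4% of all tested genes. The median log2 fold change of the 10 was -0.14, beside -0.29 for all tested genes. The same 2 and 3 genes had groups that did not overlap, which 13.3% of all tested genes showed with NP+ higher and 15.6% with NP+ lower. Fewer cells of a type and less RNA per cell cannot be told apart in these sorted fractions.

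Of the 0.0292%, 0.0125% had NP+ higher and 0.0167% NP+ lower. DESeq2 called 4 of the 9 genes it gave an adjusted p, 1 higher and 3 lower in NP+, where its share over all genes was 14.9%, of which 3.53% higher and 11.4% lower, and limma-voom called Ephb4 at an adjusted p of 0.04999, where its share was 0.075%. The authors' deposited table also had an adjusted p under 0.05 for 4 of 9, where 13.2% of its genes did. There, fold changes run NP- over NP+: the log2 values were -1.34 for Ephb4 (adjusted p = 4.46e-07), 2.87 for Ephb2 (0.00423), 1.66 for Epha4 (0.0105) and 2.66 for Efna5 (0.000765). Its share of genes with NP+ higher was 3.71% and with NP+ lower 9.45%.

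The share of all genes called also moved with the settings. With 0 of the 10 called, it was 0.0625% with the tumour as a block, 0.0875% when scaled by the upper quartile and 0.0459% when scaled by total counts, and 0.984% with at least 5 CPM in 3 libraries. With 1 of the 10 called, it was 1.02% at an adjusted p of 0.1, 2.13% with the block and the 5 CPM filter together, 8.35% without the NP- library of MET-106 and 1.1% without that of MET-108. With no low-count filter 3 were called, beside 2.74% of all genes. Leaving out tumour MET-108 gave 0 called beside 0.00394%.

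**Figure D2:**
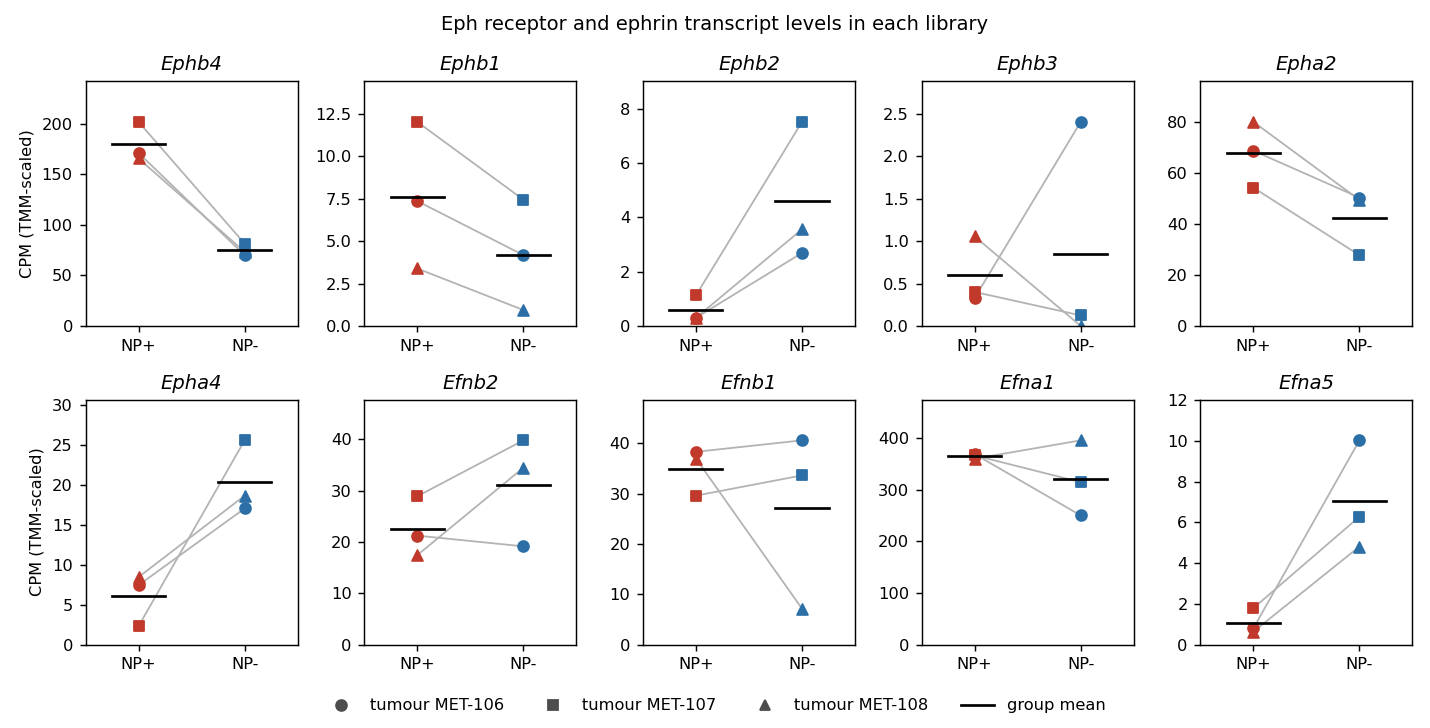
TMM-scaled CPM of the 10 genes, NP+ on the left and NP- on the right of each panel, with 1 point per library shaped by tumour, a grey line joining the libraries of 1 tumour and a black bar at the group mean. Ephb4 and Epha2 lie higher in every NP+ library than in any NP- library, and Epha4, Ephb2 and Efna5 lie lower.

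Ephb4, the venous receptor of ephrin-B2, had the smallest p of the 10. It lies at chr5:137350109-137378669 on the plus strand of GRCm38. In the order of the tumours given above it had 171, 202 and 166 CPM in NP+, against 70.0, 81.4 and 73.4 CPM in NP-. All 3 NP+ libraries stood well above all 3 NP- libraries, and the gap was alike in every tumour. The log2 differences within tumours, with 0.5 added to each CPM, were 1.28, 1.30 and 1.17.

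Ephb4 had a log2 fold change of 1.26 (SE 0.17, 95% interval 0.87 to 1.65), a fold of 2.39, and the adjusted p was 0.0600 (edgeR's quasi-likelihood test). By p it ranked 18 of all tested genes. Over the tested genes as a whole the median was -0.29, so Ephb4 stood 1.55 above it. With total-count scaling, where that median was -0.59, the value was 0.96. Single libraries moved Ephb4 across the threshold: the adjusted p was 0.0188 without the NP- library of MET-106 and 0.0321 without that of MET-108, and over all alternatives it ran from 2.77e-07 with DESeq2 to 0.393 without tumour MET-107. The exons of Ephb4 share 33 bases with Zan on the other strand, which is 0.711% of its exon bases.

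Efnb2, the arterial ephrin and preferred ligand of EphB4, did not have such a gap. It lies at chr8:8617434-8661242 on the minus strand. Its levels were 21.2, 28.9 and 17.4 CPM in the NP+ group and 19.1, 39.8 and 34.4 CPM in NP-. The groups overlapped, with NP+ higher in MET-106 and lower in the other 2 tumours. Its log2 fold change was -0.47 (SE 0.32, 95% interval -1.20 to 0.27, adjusted p = 0.384), so the fold could lie anywhere from 0.436 to 1.2.

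Within a library, the ratio of Ephb4 to Efnb2 does not depend on scaling. Per length it was 11.9, 10.3 and 14.1 in the NP+ libraries, again in the order of the codes, and 5.41, 3.02 and 3.15 in the NP- libraries. Every NP+ library had the higher ratio, by 2.2 times in MET-106, 3.41 times in MET-107 and 4.46 times in MET-108. The means were 12.1 ± 1.87 in NP+ and 3.86 ± 1.34 in NP-. The ratio is a description, with no test.

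Efnb1, the other B-class ligand gene of the 10, lies at chrX:99136130-99148991 on the plus strand. It had 38.3, 29.6 and 37.0 CPM in NP+ cells and 40.6, 33.6 and 7.13 CPM in NP-. The NP- library of MET-108 stood far below the other 5. Over all libraries the log2 fold change was 0.37 (SE 0.52, 95% interval -0.81 to 1.54, adjusted p = 0.672), and -0.064 without that library. Efnb2 made up 70.9% of the summed RPKM of both genes in the NP- library of MET-108, against 19.2% to 37.3% in the other NP- libraries and 24.6 ± 7.31% in NP+. The ratio of the summed EphB genes to the summed ephrin-B genes was 2.99 ± 0.484 in NP+ and 1.55 ± 0.644 in NP-, with 2.29 in the NP- library of MET-108 against 1.12 and 1.24 in the NP- libraries of MET-106 and MET-107.

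**Figure D3:**
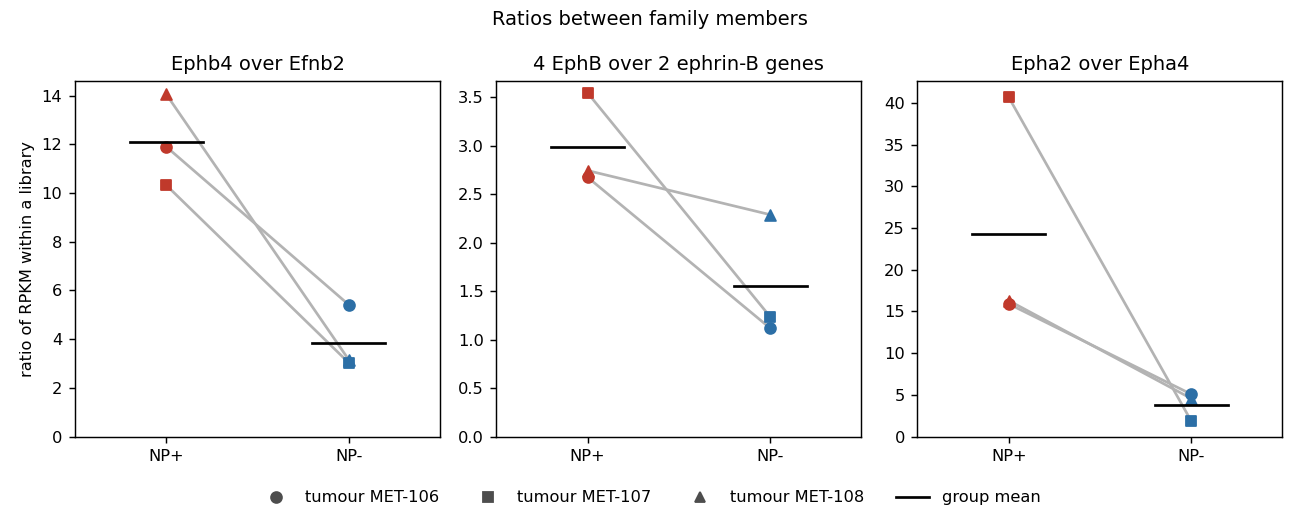
Ratios of RPKM within each library, NP+ on the left and NP- on the right of each panel, with points shaped by tumour and a black bar at the group mean. The Ephb4 to Efnb2 ratio lies at 10.3 or more in the NP+ libraries and at 5.41 or less in the NP- libraries; the 3 panels have axes of their own, each starting at 0.

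The other EphB receptor genes were low. Ephb1, a receptor studied mostly in neurons, lies at chr9:101922128-102354693 on the minus strand. It had 7.36, 12.0 and 3.39 CPM in NP+, against 4.18, 7.44 and 0.942 CPM in NP-. NP+ was higher in all 3 tumours, but the spread between tumours was wider than the gap and the groups overlapped. For Ephb1 the log2 fold change was 0.86 (SE 0.73, 95% interval -0.81 to 2.53, adjusted p = 0.477), and 1.10 with the tumour as a block (95% interval 0.01 to 2.18, adjusted p = 0.219). Its exons share 152 bases with Gm26846 on the other strand.

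Ephb2 lies at chr4:136647539-136835988 on the minus strand and encodes a receptor of B-class ephrins. It had at most 62 counts in an NP+ library and at most 181 in an NP- library, which gave 0.302, 1.13 and 0.301 CPM in the NP+ group and 2.69, 7.53 and 3.57 CPM in NP-. The groups did not overlap. For Ephb2 the log2 fold change was -2.97 (SE 0.79, 95% interval -4.77 to -1.17, adjusted p = 0.126). The mean levels were 0.735 times the mean olfactory receptor density in NP+ and 1.3 times in NP-. That mean density itself was 4.5 times as high in NP-. Single libraries overlapped in density, with 0.0849 RPKM in the NP- library of MET-106 and 0.0982 RPKM in the NP+ library of MET-107. The part of this density in the result was not tested.

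Ephb3 lies at chr16:21204755-21223305 on the plus strand. Its 12, 22 and 42 counts in NP+ and 115, 3 and 0 counts in NP- gave no common direction. Its log2 fold change was -0.52 (SE 1.52, 95% interval -3.97 to 2.93, adjusted p = 0.844), and 3.30 without the NP- library of MET-106, which held nearly all NP- counts. The spread among the NP- libraries exceeded the difference between the groups.

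Of the EphA receptor genes, Epha2 and Epha4 pointed in opposite directions. Epha2, a receptor of ephrin-A1, lies at chr4:141301240-141329384 on the plus strand. It had 68.7, 54.2 and 80.0 CPM in NP+ cells and 50.3, 27.7 and 49.4 CPM in NP-. Each NP+ library exceeded every NP- library, by a small margin between MET-107 in NP+ and MET-106 in NP-. The log2 fold change was 0.67 (SE 0.27, 95% interval 0.06 to 1.28, adjusted p = 0.188), a fold of 1.59.

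Epha4, a receptor that binds ephrins of both classes, lies at chr1:77367185-77515088 on the minus strand. It had 7.44, 2.29 and 8.45 CPM in NP+, against 17.1, 25.6 and 18.7 CPM in NP-. All NP+ libraries were below all NP- libraries, and tumour MET-107 had the widest gap, with the lowest NP+ and the highest NP- value. The log2 fold change was -1.76 (SE 0.47, 95% interval -2.83 to -0.68, adjusted p = 0.127), and the NP- mean was 3.37 times the NP+ mean. The Epha2 to Epha4 ratio per length was 15.9, 40.7 and 16.3 in NP+ and 5.08, 1.87 and 4.56 in NP-.

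The A-class ligand genes differed in level by far. Efna1 lies at chr3:89271733-89281142 on the minus strand. It had 369, 366 and 360 CPM in the NP+ group and 249.9, 314 and 395 CPM in NP-. The NP+ libraries were nearly equal, and the NP- libraries spread to both sides of them. Its log2 fold change was 0.19 (SE 0.20, 95% interval -0.26 to 0.64, adjusted p = 0.558), which turned to -0.11 with total-count and -0.069 with upper-quartile scaling and to -0.083 among genes with at least 5 CPM in 3 libraries. The interval limits a fold to between 0.836 and 1.56.

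Efna5, the ephrin-A5 gene, lies at chr17:62604184-62881317 on the minus strand. It had 29, 98 and 25 counts in NP+ and 480, 151 and 143 counts in NP-, or 0.796, 1.78 and 0.627 CPM in NP+ cells and 10.0, 6.28 and 4.81 CPM in NP-. Every NP- library was above every NP+ library, and the NP- library of MET-106 was the highest. The log2 fold change was -2.71 (SE 0.60, 95% interval -4.08 to -1.34, adjusted p = 0.109), and -2.31 (adjusted p = 0.0600) without the NP- library of MET-106. Efna5 passed with DESeq2 (adjusted p = 0.000383) and with no low-count filter (0.0261). It also passed with the tumour as a block together with the 5 CPM filter (0.0302). That filter takes CPM before TMM scaling, and Efna5 met it only through its NP- libraries, so this pass adds no support. Over all alternatives the adjusted p of Efna5 ran up to 0.413. The NP- level was 6.23 times the olfactory receptor density and the NP+ level 4.26 times.

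**Figure D4:**
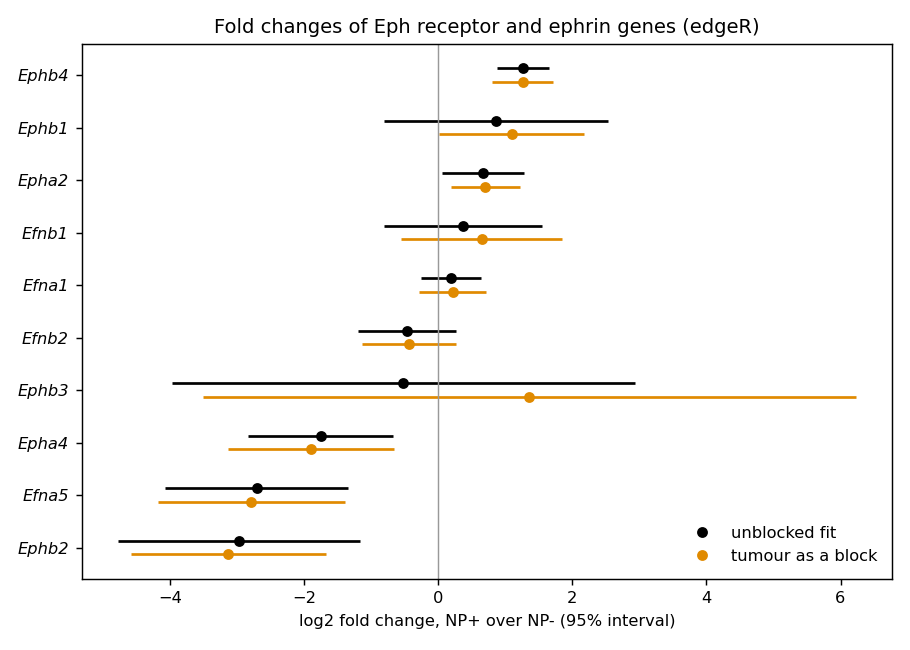
Log2 fold change of NP+ over NP- for each gene with its 95% interval, from the fit without a block in black and with the tumour as a block in orange. The unblocked intervals of Ephb4, Epha2, Epha4, Efna5 and Ephb2 leave out 0, and no gene passed the adjusted threshold in either fit.

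The summed levels of cell type markers did not overlap between the 2 groups, except those of adipocytes and lymphatic cells. The endothelial ones were high in every library. Pecam1, the CD31 gene, had 3291 ± 500.2 CPM in NP+, against 2353 ± 449 CPM in NP-. Ephb4 counts were 4.49%, 7.17% and 5.10% of Pecam1 counts in the NP+ libraries and 3.63%, 3.54% and 2.60% in the NP- libraries, with no overlap. Relative to Pecam1, Ephb4 was 1.24 times as high in NP+ in MET-106, 2.03 times in MET-107 and 1.97 times in MET-108. The 8 endothelial markers summed to between 8226 and 9908 CPM in NP+, against between 5504 and 7694 CPM in NP-. For fibroblasts the sum of 8 markers ran from 21.5 to 69.6 CPM in NP+ and from 71.5 to 4137 CPM in NP-. Mural markers ran from 62.6 to 90.5 CPM in NP+ and from 132 to 808 CPM in NP-, and epithelial markers from 7.91 to 12.1 CPM in NP+ and from 14.6 to 573 CPM in NP-. The highest of these 3 sums were all in the NP- library of MET-106. Leukocyte markers ran from 16.7 to 21.1 CPM in NP+ and from 38.8 to 87.6 CPM in NP-, lymphatic markers from 87.6 to 139.7 CPM in NP+ and from 99.7 to 658 CPM in NP-, and adipocyte markers from 1.41 to 1.86 CPM in NP+ and from 1.27 to 6.2 CPM in NP-. No marker was at 0 in all libraries of a group. The part of these cell types, endothelial cells included, in the values of Ephb4, Epha2, Epha4, Efna5, Ephb2 and Ephb3 was not tested. Without the NP- library of MET-106 the log2 fold changes were 1.27 for Ephb4, 0.86 for Epha2, -1.81 for Epha4, -2.31 for Efna5 and -3.18 for Ephb2.

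The other 12 genes of the family were at or below 1.55 RPKM in NP+ and 2.17 RPKM in NP-, which are the values of Efna4. In NP- the Efna4 level was 7.74 times the olfactory receptor density. Of the 8 other receptor genes 6 were tested and 0 passed over all genes (edgeR), with 0 higher and 2 lower at an unadjusted p under 0.05, beside 8.01% higher and 15.4% lower of all tested genes. Their median log2 fold change was -1.80, beside -0.29 for all tested genes. Epha3, a receptor of A-class ephrins, had 0.830 ± 0.26 CPM in the NP+ group and 4.3 ± 1.16 CPM in NP- (adjusted p = 0.120), and Epha7, another, 0.736 ± 0.494 CPM in NP+ cells and 3.19 ± 2.73 CPM in NP- (adjusted p = 0.198). Those 2 of the 6 had groups that did not overlap, with NP+ lower, beside 15.6% of all tested genes. In NP-, Epha5, Epha6 and Epha7 were at 1.32, 1.24 and 1.15 times the olfactory receptor density, Epha3 at 2.71 times and Epha1 at 6.9 times.

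Epha1 had 3.42 ± 1.07 CPM in NP+, against 7.6 ± 6.7 CPM in NP- (adjusted p = 0.511), Epha5 2.07 ± 1.04 CPM in the NP+ group and 6.21 ± 3.91 CPM in NP- (0.224), Epha6 0.442 ± 0.382 CPM in NP+ cells and 1.83 ± 1.78 CPM in NP- (0.303), and Epha10 0.566 ± 0.346 CPM in NP+, against 1.31 ± 0.635 CPM in NP- (0.401). Epha8 and Ephb6 did not pass the filter on low counts. Ephb6, whose receptor lacks kinase activity, had 231 counts in the NP- library of MET-106 and 3 to 26 in the other 5 libraries, and Epha8 had 0 to 13 counts per library.

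Of the 4 other ephrin genes all were tested, 0 passed and 1, Efna2, was lower in NP+ at an unadjusted p under 0.05 (15.4% of all tested genes), with 0.496 ± 0.285 CPM in the NP+ group and 2.13 ± 1.1 CPM in NP- (adjusted p = 0.176). Efna4 had 2.47 ± 0.642 CPM in NP+ cells and 3.47 ± 1.21 CPM in NP- (0.584), Efnb3 0.369 ± 0.2 CPM in NP+, against 1.55 ± 2.2 CPM in NP- (0.361), and Efna3 0.342 ± 0.183 CPM in the NP+ group and 0.23 ± 0.362 CPM in NP- (0.834). The Efnb3 mean in NP- came from the library of MET-108, which held 121 of its counts.

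Genes that act downstream of the receptors or cut the ligands were tested in the same fit. Over all 6 lists outside the 10 genes, 0 of 83 tested genes passed, and the smallest adjusted p was 0.0875 (edgeR), for Adam8. The blocked fit called 1, beside 0.0625% of all genes, DESeq2 23, beside 14.9%, and limma-voom 0, beside 0.075%. Of 29 adaptors and exchange factors of forward signalling, 5 were higher and 5 lower at an unadjusted p under 0.05, beside 8.01% and 15.4% of all tested genes, with a median log2 fold change of 0.27. Crk, an adaptor gene, had 208 ± 17.9 CPM in NP+ cells and 78.9 ± 31.1 CPM in NP- (adjusted p = 0.0903), and Yes1, a Src family kinase gene, 176 ± 16.5 CPM in NP+, against 78.1 ± 20.5 CPM in NP- (0.0889). Inppl1, the gene of the lipid phosphatase SHIP2 that binds EphA2, had 61.6 ± 8.07 CPM in the NP+ group and 30.8 ± 12.1 CPM in NP- (0.144). Cbl, the gene of a ubiquitin ligase, had 68.2 ± 10.5 CPM in NP+ cells and 42.9 ± 6.41 CPM in NP- (0.143). These 4 had groups that did not overlap, with NP+ higher. Of the 29 genes, 7 did so and 3 had no overlap with NP+ lower. Over all tested genes the shares were 13.3% and 15.6%. The exchange factor genes Tiam1, Arhgef16 and Ngef also did not overlap, with NP+ lower, and had smaller p than Inppl1 and Cbl. They lie under the 5 CPM mean asked of named genes and were chosen after their values were seen. Tiam1 had 0.870 ± 0.158 CPM in NP+, against 5.29 ± 0.672 CPM in NP- (0.0941), Arhgef16 0.237 ± 0.256 CPM in NP+, against 6.65 ± 3.01 CPM in NP- (0.0992), and Ngef 0.273 ± 0.221 CPM in NP+, against 3.16 ± 2.39 CPM in NP- (0.126). In NP- they stood at 1.91, 4.33 and 2.89 times the olfactory receptor density.

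Of 15 partners of ephrin-B reverse signalling, 0 were higher and 4 lower at an unadjusted p under 0.05, beside 8.01% and 15.4% of all tested genes, with a median of 0.17. Pard3, a polarity protein gene, had 1.69 ± 1.16 CPM in NP+, against 10.1 ± 7.1 CPM in NP- (adjusted p = 0.144), and its groups overlapped. The other lower genes, Grip1, Grip2 and Ptpn13, had 0.681 ± 0.364, 1.47 ± 0.594 and 1.32 ± 0.869 CPM in NP+. In NP- they had 2.52 ± 1.17, 4.61 ± 2.21 and 4.49 ± 3.06 CPM (0.188, 0.169 and 0.197). Those 3 of 15 did not overlap, beside 15.6% of all tested genes. Their means lie under the 5 CPM asked of named genes, and they were chosen after their values were seen. Nck2, the gene of an adaptor that binds ephrin-B tails, had 14.0 ± 1.28 CPM in the NP+ group and 9.78 ± 0.7 CPM in NP- (0.269). Dab2, an endocytic adaptor gene, had 186 ± 41.0 CPM in NP+ cells and 145 ± 9.0 CPM in NP- (0.302), and Tie1, an endothelial receptor gene, 1213 ± 185 CPM in NP+, against 933 ± 311 CPM in NP- (0.398). Tie1 is also among the endothelial markers, and its part in reverse signalling was not tested.

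Of 12 shedding and cleavage genes, 3 were higher and 1 lower at an unadjusted p under 0.05, beside 8.01% and 15.4% of all tested genes, with a median of 0.38. The lower one, Adam8, a metalloproteinase gene, had the smallest p of the list. It had 1.51, 1.33 and 1.08 CPM in NP+, against 9.61, 6.82 and 6.19 CPM in NP-, with a log2 fold change of -2.53 (adjusted p = 0.0875). Its groups did not overlap, its mean lies under the 5 CPM asked of named genes, and it was chosen after its values were seen. Mmp14, the gene of a membrane-bound metalloproteinase, had 279, 374 and 308 CPM in the NP+ group and 141, 55.0 and 63.8 CPM in NP- (adjusted p = 0.0887). Every NP+ library was above every NP- library. Aph1a and Psen2, gamma-secretase subunit genes, had 67.1 ± 10.3 and 60.2 ± 7.51 CPM in NP+ cells and 37.6 ± 7.01 and 41.7 ± 8.42 CPM in NP- (0.123 and 0.186). Adam10, the gene of the main protease known to cut ephrins, had 671, 534 and 643 CPM in NP+, against 336, 441 and 553 CPM in NP- (0.225).

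**Figure D5:**
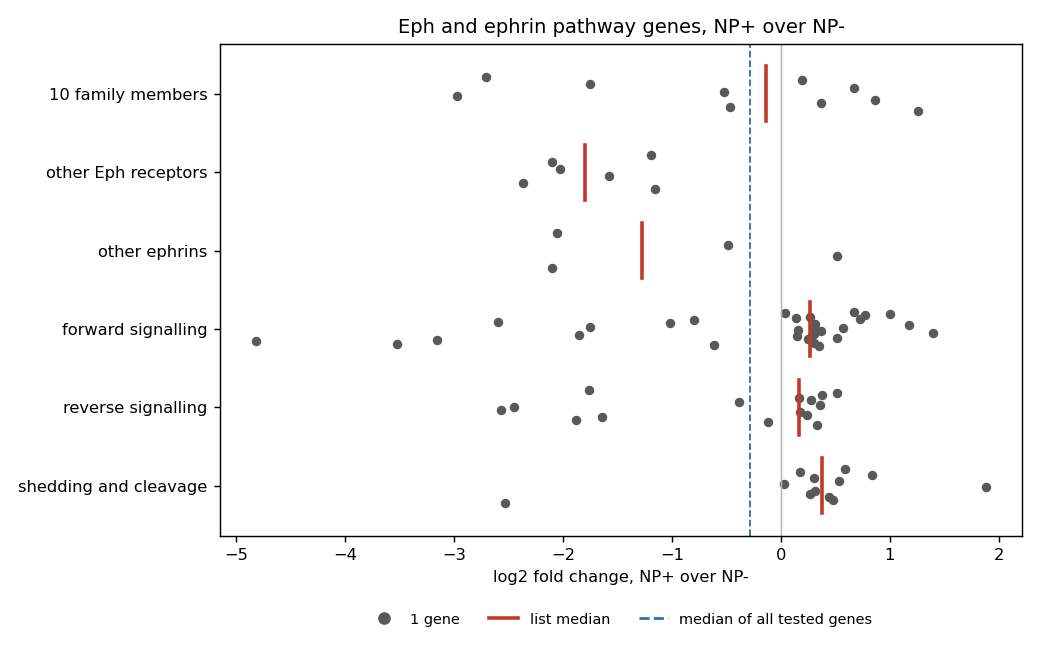
Log2 fold change of NP+ over NP- for each tested gene (grey points) in the 10 family genes and 5 of the 6 other lists, with the list median in red and the median of all tested genes, -0.29, as a dashed line. The other Eph receptors have a median of -1.80, and the forward signalling, reverse signalling and shedding lists have medians of 0.27, 0.17 and 0.38.

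Of 18 genes of venous and arterial identity, 5 were higher and 4 lower in NP+ at an unadjusted p under 0.05, beside 8.01% and 15.4% of all tested genes, with a median log2 fold change of 0.28. Selp, the P-selectin gene of veins, had 1635 ± 663 CPM in the NP+ group and 430 ± 189 CPM in NP- (adjusted p = 0.0992, and 0.0319 in the fit blocked on tumour). The arterial connexin genes Gja4 and Gja5 had 109 ± 14.5 and 78.9 ± 1.94 CPM in NP+ cells and 232 ± 54.0 and 157 ± 40.6 CPM in NP- (0.0941 and 0.102). Sox17, an arterial transcription factor gene, had 55.2, 80.5 and 62.7 CPM in NP+, against 32.3, 28.9 and 18.3 CPM in NP- (0.0955). Nr2f2, a venous transcription factor gene, had 34.7 ± 3.08 CPM in NP+ and 44.0 ± 14.1 CPM in NP- (0.417). Notch1, an arterial receptor gene, had 233 ± 6.33 CPM in NP+ and 125 ± 54.5 CPM in NP- (0.144). Nr2f2 and Notch1 were chosen after their values were seen, and the Nr2f2 groups overlapped. Of the 18 genes, 6 had no overlap with NP+ higher and 4 with NP+ lower. The shares of all tested genes were 13.3% and 15.6%. The 6 were Selp, Sox17, Notch1, Aplnr, Ackr1 and Nrp1, and the 4 were Gja4, Gja5, Hey2 and Bmx. Log2 fold changes were 0.68 for Aplnr (adjusted p = 0.127, edgeR), 0.96 for Ackr1 (0.193) and 0.33 for Nrp1 (0.272). They were -2.38 for Hey2 (0.152) and -0.86 for Bmx (0.182). Aplnr, Ackr1, Nrp1, Hey2 and Bmx were also chosen after their values were seen. Hey2 lies under the 5 CPM mean asked of named genes.

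Among 10825 genes with a mean of at least 5 CPM, those whose pattern over the 6 libraries lay nearest to that of Ephb4 were Pink1, Sema6b, Prss23os, Ptprg and Tnfrsf23. The root mean square difference of their centred log2 CPM from that of Ephb4 ran from 0.134 for Pink1 to 0.168 for Tnfrsf23. Prss23os is named as the opposite strand of another gene, and without strand its counts are uncertain. Sema6b, a semaphorin gene, had 37.5 ± 1.99 CPM in the NP+ group and 13.6 ± 0.354 CPM in NP-, and Ptprg, a receptor phosphatase gene, 246 ± 11.8 CPM in NP+ cells and 105 ± 12.1 CPM in NP-. Nearest to Efnb2 were Btaf1, Rnf169, Gclm, H2-T3 and Lrba, with differences of 0.101 to 0.147. Gclm, the gene of a glutathione synthesis subunit, had 8.37 ± 1.62 CPM in NP+, against 12.2 ± 3.44 CPM in NP-. The likeness is a description of these 6 libraries.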

How the data were processed

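The 6 sorted fractions, 3 per group, were frozen in Trizol, their RNA was taken up with an RNeasy Plus kit, and cDNA came from SMART-Seq v4, which marks neither strand nor molecules; paired reads of 150 bp were sequenced, per the labels' protocols. The authors deposited raw counts, 1 per gene in each library. The submitters' processing notes name Trimmomatic 0.036, STAR 2.5.2b, featureCounts (Subread 1.5.2), DESeq2 and the build GRCm38, also called mm10. Which annotation release, strand setting and multi-mapping rule applied is not given in the sources used here, so genes that overlap or resemble each other are uncertain. The authors' deposited table gives a signal per library, the count divided by 1 size factor: 100% of its 156426 values gave whole reads equal to the counts within 0.01 reads, so the count test on recovered reads is the test on the counts. It also holds log2 fold changes by the authors (NP- over NP+, as the signs of 99.9% of them show) and their deposited p-values and adjusted p-values.

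The libraries held 20856410 to 58089600 gene counts in total. Counts were tested with edgeR 4.0.16 in R 4.3.3 (quasi-likelihood, TMM scaling, filterByExpr with a minimum count of 10, Benjamini-Hochberg over 23989 genes, threshold 0.05). The SE is the size of the log2 fold change divided by the square root of F, and the 95% intervals use the fit's degrees of freedom. CPM use the tested totals and TMM factors. DESeq2 1.42.0, limma-voom (limma 3.58.1), other scalings and filters, and each library or tumour left out were alternatives. The edgeR, blocked edgeR, DESeq2 and limma-voom fits were first checked on simulated counts. The MET code that an NP+ and an NP- library share in the labels was read as the tumour and pairs them. The main fit has no term for the tumour, so its p-values, SE and intervals leave out this pairing. Only the blocked fits use it. Deviations of the paired libraries from their group means correlated at 0.268, 0.211 and 0.0431. If a code were not an animal of its own, p-values would measure only the spread between these libraries.

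The 10 genes, the other lists (further family genes, forward signalling, reverse signalling, shedding, venous and arterial identity) and the markers of endothelial cells, leukocytes, fibroblasts, mural cells, epithelial cells, adipocytes and lymphatic cells were chosen with earlier results of these data known. The rule named all 22 family genes, up to 4 genes per other list with the smallest p and at least 5 CPM, and the 5 genes nearest in pattern to Ephb4 and to Efnb2. Symbols were matched by Ensembl ID for 48970 of 49315 genes. Coordinates and exon lengths come from the count files, and the start and end of all 10 genes equal those in GENCODE release M21 (GRCm38). The 6 promoter motifs were chosen after the values were seen.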

Additional observations from a re-analysis of the deposited data

How the results depend on the processing

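The count of the 10 genes called, 0, became 4 by DESeq2 and in the authors' deposited table, 3 with no low-count filter, and 1 by limma-voom, at an adjusted p of 0.1, and with the tumour as a block and at least 5 CPM in 3 libraries together. Leaving out 1 library or tumour gave 0 to 1. It was 0 with the tumour as a block alone. Added to the 5 CPM filter, the block brought Efna5 past the threshold, at an adjusted p of 0.0302 against 0.0555 with the filter alone. Efna5 met this filter only through its NP- libraries, where it was high, so this pass adds no support. Of the 83 other genes tested, 0 called became 23 by DESeq2 (14.9% of all genes), 11 with no low-count filter (2.74%), 9 at an adjusted p of 0.1 (1.02%), 4 with at least 5 CPM in 3 libraries (0.984%), 6 with the block and that filter (2.13%) and 1, Selp, with the block alone (0.0625%). Leaving out 1 library or tumour gave 0 to 13, the highest without the NP- library of MET-106 (8.35%). The setting that joins the block and the filter, and the comparison with the deposited table were added after seeing the data.

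Ephb4 (0.96 to 1.45), Epha2 (0.38 to 0.99), Ephb1 (0.41 to 1.57), Efnb2 (-0.77 to -0.12), Epha4 (-2.17 to -1.17), Efna5 (-3.38 to -2.00) and Ephb2 (-3.86 to -2.41) kept the sign of their log2 fold change in all alternatives run. Efnb1 turned to -0.064 without the NP- library of MET-108 and to -0.053 without tumour MET-108, in a range up to 0.908 without tumour MET-106. Ephb3 turned to 1.36 with the block, 1.08 by limma-voom, 3.30 without the NP- library of MET-106 and 3.72 without tumour MET-106, in a range down to -1.81 without tumour MET-108. Efna1 turned to -0.11 with total-count scaling, -0.069 with upper-quartile scaling, -0.083 with at least 5 CPM in 3 libraries and -0.054 with the block added to that filter. The cause was not tested. Ephb2 and Ephb3 could not be fitted with at least 5 CPM in 3 libraries, and Ephb3 has no adjusted p by DESeq2. With total counts in place of TMM, RPKM levels moved by 0.888 to 1.12 times, and the log2 difference in the Ephb4 to Efnb2 ratio is the same without exon length by construction. Ephb2, Ephb3 and Efna5 have fewer than 500 counts in every library, and the part of depth in their values was not tested.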
